A study of Mus musculus with 58 samples.

Results

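The genes described here are Kctd13, its paralogs Tnfaip1 and Kctd10, the ubiquitin ligase scaffold gene Cul3 and its target Rhoa. They were chosen by name and for their known roles, and all 5 were found in each of the 6 count tables, among 54532 genes in the RNA-seq tables and 18411 in the ribosome footprint and lysate RNA tables. KCTD13 is a BTB-domain adaptor that binds CUL3, the scaffold of a cullin-RING ubiquitin ligase, and brings the small GTPase RhoA to the ligase for ubiquitination and proteasomal degradation. TNFAIP1 and KCTD10 are close relatives that form the same type of ligase with CUL3, and RhoA in turn controls actomyosin contraction and the actin cytoskeleton of neurons, in part through its kinases ROCK1 and ROCK2. Kctd13 lies in the mouse segment that corresponds to human 16p11.2, while the other 4 genes lie on other chromosomes, so a deletion of the segment removes 1 copy of the adaptor gene and leaves both copies of its paralogs, of the ligase and of the target. The data are RNA levels and ribosome footprints, and no protein was measured.

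The 58 libraries came from mouse striatum, of strain B6129S by the labels. The study's methods name another strain for the males that sired the zygotes of the 3g mice. Whether the lines share a strain background is therefore uncertain. The 16p11.2 del/+ mice carry 1 copy of the whole segment. The 3g del/+ mice carry premature stop mutations, made with CRISPR/Cas9, in 1 copy of 3 genes of the segment, Taok2, Sez6l2 and Mvp, and Kctd13 itself was not targeted. Each mutant was compared with wt mice of its own line, and the labels name no treatment. The study used littermates 10 to 14 weeks old unless it specified otherwise. Its text does not describe the footprint and lysate RNA experiments, so the age and kinship of those animals are not given there. The labels do not say which wt mouse is the littermate of which mutant, and the whole segment was removed in every 16p11.2 del/+ mouse, so no effect can be assigned to Kctd13 alone. Bulk RNA-seq covered 4 del/+ and 4 wt libraries of each sex and line, 32 in all. Footprint libraries, made from RNA protected by ribosomes, and RNA libraries from the same lysate came from males only, with 3 del/+ and 4 wt animals in the 16p11.2 line and 3 and 3 in the 3g line. Total counts were 11711099 to 65529807 in RNA-seq, 15102576 to 19122488 in lysate RNA and 342052 to 678130 in footprints, so footprint values are the least precise. In 3g female RNA-seq they separated by genotype, at 24332636 to 36821127 in del/+ and 42289823 to 65529807 in wt. In 3g males they were 11711099 to 39716416 in del/+ and 39301819 to 55912622 in wt. The part of depth in the 3g RNA-seq differences was not tested. Each library was treated as 1 replicate, so the p-values measure only the spread between these libraries.

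The genes of striatal projection neurons were high in all RNA-seq libraries, with a summed level of 10 markers between 4752 and 9081 CPM (counts scaled to the library total) and none of them at 0. In RNA-seq, 4 libraries were treated as standing apart. In del/+ female 1 of the 16p11.2 line, Xist was at 0.457 CPM and the Y-linked gene Ddx3y at 38.1 CPM, which goes against its label, and it was the only 1 of 32 libraries to do so, so below it is called the library labelled female 1. Both 16p11.2 male libraries numbered 4 had endothelial marker sums of 192 (del/+) and 174 CPM (wt), against 71.8 to 101 CPM in the other 6, and oligodendrocyte marker sums of 5424 and 7375 CPM, against 9300 to 10796 CPM. In the 3g males, wt 17 had an endothelial marker sum of 85.4 CPM, against 159 to 182 CPM in the other 7, an oligodendrocyte sum of 9793 CPM, against 3955 to 6486 CPM, and a cortical projection neuron sum of 811 CPM, against 35.6 to 340 CPM. No marker was called in any del/+ to wt comparison. Other libraries varied too. Cortical projection neuron sums in 3g females were 469, 609, 438 and 157 CPM in del/+ and 158, 112, 151 and 551 CPM in wt. The median log2 difference of these markers was 0.71, and its part in the 3g female differences was not tested. In the 16p11.2 line, del/+ male 2 had the lowest striatal sum (4752 CPM) and a cortical sum of 1160 CPM. The RNA-seq differences of the 5 genes by line and sex are given with and without the 4 libraries that stand apart.

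Kctd13 (ENSMUSG00000030685) lies at chr7:126928840-126947897 of GRCm38, Tnfaip1 (ENSMUSG00000017615) at chr11:78522850-78536270 and Kctd10 (ENSMUSG00000001098) at chr5:114363572-114380505. The promoter windows of these 3 adaptor genes are shown because they are the genes that could stand in for each other, with 250 bases before and 50 bases after the RefSeq start, on the strand of the gene. The windows are chr7:126928629-126928928 on the plus strand for Kctd13, chr11:78536211-78536510 on the minus strand for Tnfaip1 and chr5:114380456-114380755 on the minus strand for Kctd10. Capitals mark CCGGAA, a longer form of the GGAA core bound by ETS-family factors, on the strand shown, or TTCCGG where it is on the opposite strand. Shorter GGAA matches are not marked or counted.
Kctd13: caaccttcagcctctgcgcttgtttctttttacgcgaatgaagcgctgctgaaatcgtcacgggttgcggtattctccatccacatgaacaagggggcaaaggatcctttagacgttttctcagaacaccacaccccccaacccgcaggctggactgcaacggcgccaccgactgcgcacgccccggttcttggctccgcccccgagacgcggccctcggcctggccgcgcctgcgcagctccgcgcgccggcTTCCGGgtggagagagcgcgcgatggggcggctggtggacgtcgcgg
Tnfaip1: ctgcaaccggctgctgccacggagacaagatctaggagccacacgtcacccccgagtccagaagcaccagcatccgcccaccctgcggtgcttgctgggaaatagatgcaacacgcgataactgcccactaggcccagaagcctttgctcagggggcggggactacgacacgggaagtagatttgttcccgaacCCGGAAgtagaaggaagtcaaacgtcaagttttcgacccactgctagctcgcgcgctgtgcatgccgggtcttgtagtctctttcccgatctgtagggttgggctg
Kctd10: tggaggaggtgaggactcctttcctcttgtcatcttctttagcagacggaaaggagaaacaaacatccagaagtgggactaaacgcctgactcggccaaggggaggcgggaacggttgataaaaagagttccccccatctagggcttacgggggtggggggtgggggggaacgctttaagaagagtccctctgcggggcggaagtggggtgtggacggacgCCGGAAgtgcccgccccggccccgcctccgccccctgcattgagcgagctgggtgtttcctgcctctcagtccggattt
Each window held CCGGAA once, on either strand. It began 3 bases after the start on the opposite strand in Kctd13, 56 bases before the start on the same strand in Tnfaip1 and 29 bases before it on the same strand in Kctd10. Of 32851 windows of the same length in the RefSeq table, 4894 (14.9%) held it on either strand. The windows were rich in G and C, at 65.3% for Kctd13, 58.7% for Tnfaip1 and 60.7% for Kctd10, against a median of 52.7% over all windows. The window of Cul3 (ENSMUSG00000004364, chr1:80264923-80340690) was 72.3% G and C with no match, and the RefSeq table gives Rhoa (ENSMUSG00000007815, chr9:108306160-108337943) 2 windows, at 56.7% with 1 match and 78.7% with 2. These matches are letters in a window, and binding was not measured.

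Whether the deletion lowers the adaptor gene was examined first. In 16p11.2 males, Kctd13 stood at 43.8, 45.8, 40.4 and 32.6 CPM in the del/+ libraries and at 103.3, 92.6, 97.1 and 91.1 CPM in the wt libraries. In 16p11.2 females it stood at 45.3, 43.5, 43.8 and 45.4 CPM in del/+ and at 88.5, 97.9, 95.2 and 87.5 CPM in wt. The groups did not overlap in either sex, as for 2.12% of genes tested in this direction in males and 1.7% in females. The lowest del/+ male library was replicate 4, which stands apart in its markers.

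On average, 16p11.2 del/+ males had 40.6 ± 5.81 CPM of Kctd13 (SD, n = 4) and wt males 96.0 ± 5.46 CPM (SD, n = 4), a log2 difference of −1.24 (SE 0.114, 95% interval −1.49 to −0.99) or 42.3% of wt (35.5 to 50.4%). The edgeR quasi-likelihood test gave an adjusted p of 0.000910. Females had 44.5 ± 1.01 CPM in del/+ and 92.3 ± 5.09 CPM in wt (SD, n = 4 each), a log2 difference of −1.05 (SE 0.0594, 95% interval −1.18 to −0.92) or 48.3% of wt (44.1 to 52.8%), with an edgeR adjusted p of 8.29e-06. Kctd13 was thus called lower in both sexes, where 0.0947% of all genes tested in males and 0.111% in females were called lower, and it was the only one of the 5 genes called. A two-sided exact permutation test gave p = 0.0286 in each sex, the smallest that 4 against 4 libraries allow. In bulk tissue, fewer cells of a type and less RNA per cell cannot be told apart. Without both male libraries numbered 4 the difference in males was −1.17 (edgeR adjusted p = 0.000663), and without the library labelled female 1 that in females was −1.06 (edgeR adjusted p = 5.02e-05).

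**Figure D1:**
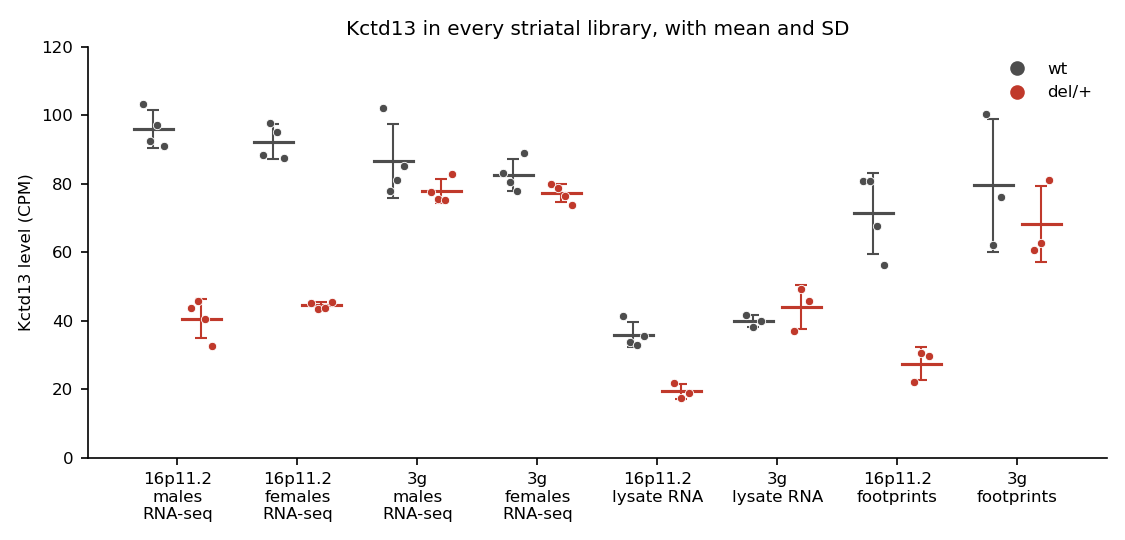
Kctd13 level in CPM (vertical axis) in every library of each comparison, with wt in grey and del/+ in red. Points are libraries, horizontal lines are means and bars are SDs. The del/+ libraries of the 16p11.2 line lie below their wt libraries in all 4 comparisons, whereas del/+ and wt libraries of the 3g line overlap.

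The difference in males, although the larger of the 2 in size, was not distinguishable from that in females. The genotype-by-sex interaction was −0.19 (95% interval −0.45 to 0.07, edgeR adjusted p = 0.835), and −0.13 (adjusted p = 0.926) without the 3 libraries of this line that stand apart. With sex as a covariate, Kctd13 was at 45.2% of wt across both sexes (log2 −1.15, SE 0.0643, edgeR adjusted p = 2.18e-09), where 0.18% of genes were called in either direction.

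The 3g line served as a comparison in which 3 neighbours of Kctd13 are mutated and Kctd13 is not. In 3g males, Kctd13 stood at 77.5, 75.7, 75.3 and 83.0 CPM in del/+ and at 102, 77.9, 81.2 and 85.1 CPM in wt. In 3g females it stood at 79.8, 78.9, 76.5 and 73.9 CPM in del/+ and at 83.3, 80.6, 77.9 and 88.9 CPM in wt. Libraries of the 2 genotypes overlapped in both sexes, and the highest value, in wt male 17, came from the library whose markers stand apart. The log2 difference was −0.15 in males (95% interval −0.36 to 0.05, edgeR adjusted p = 0.974), and −0.07 without wt male 17. It was −0.10 in females (SE 0.0444, 95% interval −0.20 to −0.0008, edgeR adjusted p = 0.449, unadjusted 0.0483), and −0.06 (adjusted p = 0.5004) without wt female 39, the highest of the 8 libraries. Total counts of the 3g female libraries separated by genotype, and the part of depth was not tested. Across both sexes the log2 difference of Kctd13 was −0.13 (95% interval −0.24 to −0.02, edgeR adjusted p = 0.860, unadjusted 0.0240), where 0.00504% of genes were called, and −0.08 (adjusted p = 0.421) without wt male 17. Kctd13 did not pass the test in the 3g line, where 0% of genes in males and 0.00526% in females were called, and the lowest end of these intervals, −0.36, lay above the log2 difference of −1 that the loss of 1 copy would give. Sez6l2, a gene mutated in this line, was at −0.57 (SE 0.0833) in 3g males and did not pass either (edgeR adjusted p = 0.807). Not passing is therefore no evidence of no difference.

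The difference between the lines was tested directly. The genotype-by-line interaction of Kctd13 was −1.02 (SE 0.0852, 95% interval −1.19 to −0.84, edgeR adjusted p = 1.05e-09), in a fit in which 0.113% of 20342 genes were called lower. Without the 4 libraries that stand apart it was −1.03 (edgeR adjusted p = 1.14e-12). The same interaction for Tnfaip1, Kctd10, Cul3 and Rhoa was 0.01, 0.05, −0.05 and −0.06, each with an edgeR adjusted p of 1.00 after rounding, and 0.03, 0.05, −0.002 and 0.01 without the 4 libraries.

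**Figure D2:**
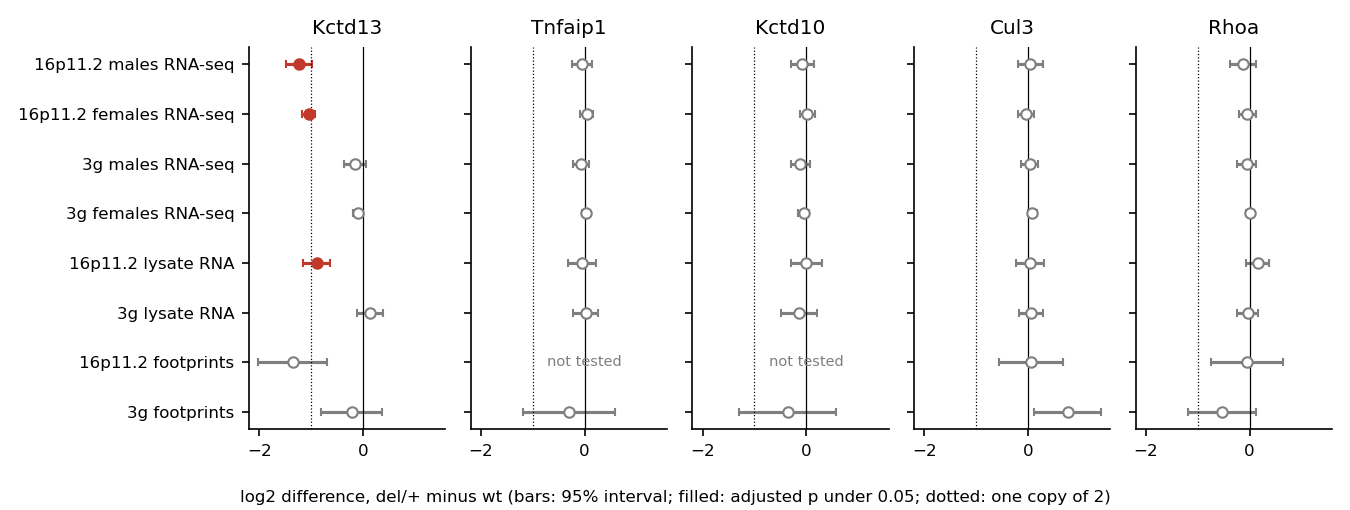
Log2 difference, del/+ minus wt, of each gene (panels) in each comparison (rows), with 95% intervals from edgeR. Filled points passed an adjusted p of 0.05 and the dotted line marks a log2 difference of −1. Only Kctd13 in the 16p11.2 RNA-seq and lysate RNA comparisons is filled, and the footprint intervals are the widest.

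Lysate RNA of 16p11.2 males gave the same direction, and the labels do not say whether these animals were also used for RNA-seq. Kctd13 stood at 21.8, 17.4 and 18.8 CPM in del/+ animals 1, 2 and 3 and at 41.3, 33.9, 32.95 and 35.5 CPM in wt animals 1 to 4, counting animals upward by their label numbers within each line and genotype. The groups did not overlap, as for 2.63% of genes tested in this direction. The means were 19.4 ± 2.26 CPM (SD, n = 3) and 35.9 ± 3.73 CPM (SD, n = 4), a log2 difference of −0.89 (SE 0.121, 95% interval −1.16 to −0.63) or 53.8% of wt. The edgeR adjusted p was 0.00750, where 0.126% of genes were called lower, and the two-sided exact permutation p was 0.0571, the smallest that 3 against 4 allow. The call was lost without either of 2 del/+ animals: the difference was −0.82 (adjusted p = 0.0829) without del/+ animal 2 and −0.88 (adjusted p = 0.0533) without del/+ animal 3, whereas without del/+ animal 1 it was −0.99 (adjusted p = 0.0152). In 3g lysate RNA, Kctd13 was at 37.04, 49.4 and 45.7 CPM in del/+ and at 41.7, 38.2 and 40.1 CPM in wt, with a log2 difference of 0.14 (95% interval −0.11 to 0.38, edgeR adjusted p = 0.952), where 0.0209% of genes were called.

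Ribosome footprints of Kctd13 were fewer in 16p11.2 del/+ animals, within the limits of very low counts. The 3 del/+ animals had 8, 11 and 10 footprints and the 4 wt animals 29, 34, 33 and 31, which correspond to 22.0, 30.6 and 29.8 CPM against 80.9, 80.7, 67.7 and 56.3 CPM. The groups did not overlap, as for 3.22% of genes tested in this direction. The log2 difference was −1.36 (SE 0.328, 95% interval −2.02 to −0.69) or 39.02% of wt (24.6 to 61.9%), with an edgeR p of 0.000220 and an adjusted p of 0.0921, so it did not pass the test over all 5964 genes, of which 0.117% did. Without the filter on low counts the difference was −1.37 and the adjusted p 0.0378. In 3g footprints, Kctd13 was at 60.8, 62.9 and 81.0 CPM in del/+ and at 100, 62.1 and 76.2 CPM in wt, and the log2 difference was −0.22 (95% interval −0.80 to 0.37, edgeR adjusted p = 0.892).

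The RNA difference of Kctd13 lay within the range of the other genes of the deleted segment. In 16p11.2 males, 14 of 20 other listed genes of the segment that passed the count filter were called lower, with a median log2 difference of −1.04 over the 20, against −0.01 over all genes tested. In females, 15 of 20 were called lower, with a median of −1.07. From the lowest difference up, Kctd13 ranked 3 of 21 in males, 12 of 21 in females, 20 of 21 in lysate RNA and 1 of 10 in footprints, so its place changed from comparison to comparison. Its neighbours in males were Sez6l2, a neuronal membrane protein gene (−1.24, edgeR adjusted p = 0.00162), and Aldoa, the glycolytic aldolase (−1.24, adjusted p = 0.00128). Taok2, a kinase gene, was at −0.98 (adjusted p = 0.000989). Those with the smallest p in males were Maz (−1.13), a zinc-finger transcription factor gene, Ypel3 (−1.02), Cdipt (−1.18), which encodes phosphatidylinositol synthase, Fam57b (−0.97) and Ino80e (−1.13), a subunit gene of the INO80 chromatin remodeller. In females they were Taok2 (−1.06), Cdipt (−1.03), Asphd1 (−1.15), Ypel3 (−0.94) and Maz (−1.08), and in lysate RNA Fam57b (−1.33), Sez6l2 (−1.38), Maz (−1.18), Prrt2 (−1.21), a gene of presynaptic release, and Taok2 (−1.04), each called by edgeR. For the line interaction they were Taok2 (−0.997), Asphd1 (−1.07), Maz (−1.05), Ino80e (−1.07) and Aldoa (−1.18). In footprints, Aldoa (−1.25, edgeR adjusted p = 0.0228) and Maz (−1.09, adjusted p = 0.0250), were called, whereas Kctd13 was not. In 3g females, Sez6l2, 1 of the genes mutated in this line, was the only gene of the segment called (−0.49, edgeR adjusted p = 0.00336), with Kctd13 at −0.10.

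**Figure D3:**
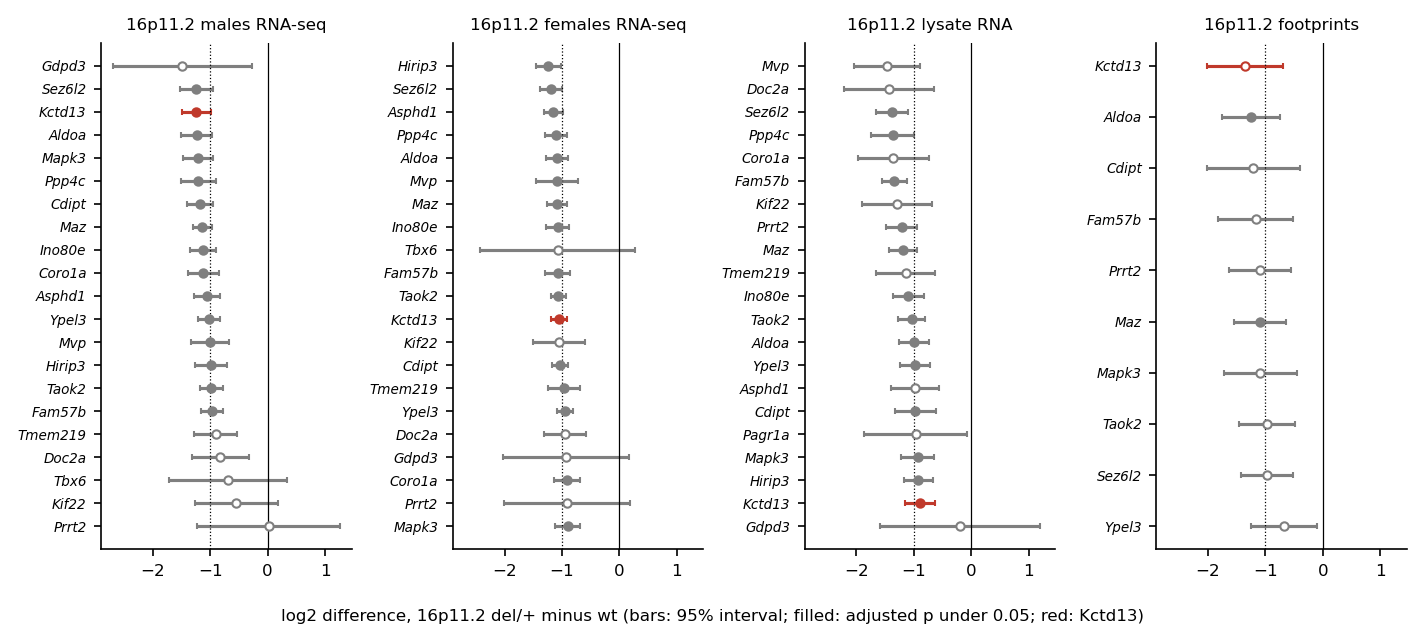
Log2 difference, 16p11.2 del/+ minus wt, of the listed genes of the deleted segment that passed the count filter, ordered within each panel, with 95% intervals. Filled points passed an adjusted p of 0.05 and Kctd13 is red. Kctd13 is placed 3 of 21 in males, 12 of 21 in females, 20 of 21 in lysate RNA and 1 of 10 in footprints, counted from the top.

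All 32 RNA-seq libraries were also normalized together, to order the groups by their mean level of Kctd13. The 16p11.2 wt males (99.0 ± 6.13 CPM) and wt females (97.6 ± 5.26 CPM) came first and did not differ beyond their spread (SD, n = 4 in each group). The 4 groups of the 3g line followed, at 83.1 ± 11.1 CPM in wt males, 79.3 ± 4.62 CPM in wt females, 74.2 ± 2.56 CPM in del/+ females and 74.2 ± 3.99 CPM in del/+ males, with overlapping ranges between neighbours. The highest library of the 3g wt males, wt 17, at 99.1 CPM, lay above the lowest libraries of the 16p11.2 wt males (93.7 CPM) and wt females (92.7 CPM). The ranges of these groups thus overlapped only through wt 17, whose markers stand apart. The 3g wt females reached 85.4 CPM. The 16p11.2 del/+ females (47.2 ± 0.457 CPM) and males (41.8 ± 6.05 CPM) came last, below every library of the other 6 groups. Over single libraries the level spanned 33.4 to 107 CPM, or 3.22-fold. The lines were sequenced in separate tables, so a difference between the wt groups of the lines cannot be told apart from a difference between tables.

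The paralog Tnfaip1, which encodes another RhoA-directed CUL3 adaptor, was not called in any comparison. In 16p11.2 males it stood at 52.05, 54.6, 51.1 and 47.0 CPM in del/+ and at 52.3, 51.9, 49.6 and 58.5 CPM in wt. In 16p11.2 females it stood at 52.6, 52.3, 54.0 and 50.9 CPM in del/+ and at 50.1, 52.9, 52.6 and 48.8 CPM in wt. The ranges overlapped in both sexes, and in males both the lowest and the highest value belonged to a library numbered 4. The log2 difference was −0.05 in males (95% interval −0.25 to 0.15, edgeR adjusted p = 0.892) and 0.04 in females (95% interval −0.09 to 0.16, adjusted p = 0.998). It was 0.04 in males without both libraries numbered 4 and 0.04 in females without the library labelled female 1.

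In the 3g line, Tnfaip1 ranged from 46.4 to 49.0 CPM in del/+ males and from 48.2 to 54.7 CPM in wt males, with the highest value in wt 17. It ranged from 45.2 to 50.6 CPM in del/+ females and from 46.2 to 47.8 CPM in wt females. The log2 differences were −0.06 (95% interval −0.22 to 0.09) and 0.03 (−0.06 to 0.11), with edgeR adjusted p of 0.974 and 0.840, and −0.02 in males without wt 17. Lysate RNA gave −0.05 (−0.31 to 0.21) in the 16p11.2 line and 0.02 (−0.22 to 0.25) in the 3g line. In footprints Tnfaip1 had 4 to 13 counts per library in the 16p11.2 line, did not pass the count filter and was not tested, and in the 3g line its difference was −0.30 with an interval from −1.19 to 0.59. Across the RNA-seq and lysate comparisons, the upper ends of the intervals for Tnfaip1 lay at 0.25 or lower on the log2 scale and the lower ends at −0.31 or higher. Differences inside the interval of each comparison are not excluded.

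Kctd10, the other paralog and also an adaptor of CUL3, was not called either. In 16p11.2 males it stood at 24.4, 27.1, 23.3 and 26.6 CPM in del/+ and at 27.5, 25.8, 24.1 and 29.7 CPM in wt. In 16p11.2 females it stood at 24.1, 25.3, 24.6 and 23.2 CPM in del/+ and at 25, 23.2, 23.4 and 24.4 CPM in wt. The groups overlapped almost throughout. The log2 difference was −0.08 in males (95% interval −0.30 to 0.15, edgeR adjusted p = 0.857) and 0.02 in females (−0.13 to 0.16, adjusted p = 0.998). It was −0.05 in males without both libraries numbered 4 and 0.02 in females without the library labelled female 1.

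In 3g males Kctd10 ranged from 23.7 to 28.7 CPM in del/+ and from 27.0 to 29.1 CPM in 3 wt libraries, with wt 17 above them, and in 3g females from 25.1 to 26.5 CPM in del/+ and from 25.1 to 28.2 CPM in wt. The log2 differences were −0.11 (95% interval −0.30 to 0.07, edgeR adjusted p = 0.974) and −0.04 (−0.15 to 0.06, adjusted p = 0.763), and −0.08 in males without wt 17. Lysate RNA gave −0.0006 (−0.30 to 0.30) in the 16p11.2 line and −0.14 (−0.48 to 0.20) in the 3g line. Its footprints numbered 2 to 11 per library in the 16p11.2 line, too few to be tested, and gave −0.36 (−1.29 to 0.58) in the 3g line.

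Cul3, the scaffold that all 3 adaptors bind, showed no called difference in RNA. In 16p11.2 males it stood at 130.6, 122, 121 and 118 CPM in del/+ and at 107, 117, 109 and 144 CPM in wt. In 16p11.2 females it stood at 113, 128, 113 and 105 CPM in del/+ and at 112, 114, 123 and 119 CPM in wt. The highest male value, in wt replicate 4, lay far from the other 3 wt males, which were all below the 4 del/+ males. The log2 difference in males was 0.04 (95% interval −0.19 to 0.28, edgeR adjusted p = 0.927), and 0.17 (adjusted p = 0.646) without both libraries numbered 4. In the fit without these libraries, 2 of the 5 genes had an unadjusted edgeR p under 0.05, against 7.4% of all genes, and only Kctd13 was called. In females the log2 difference of Cul3 was −0.03 (−0.18 to 0.13, adjusted p = 0.998), and −0.02 without the library labelled female 1.

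In the 3g line, Cul3 ranged from 116 to 136 CPM in del/+ males and from 115 to 128 CPM in wt males, a log2 difference of 0.03 (95% interval −0.13 to 0.20, edgeR adjusted p = 0.977), and 0.05 without wt 17. In 3g females it stood at 119.6, 125.1, 130.5 and 123.2 CPM in del/+ and at 111.7, 122.5, 119.3 and 116.3 CPM in wt. Only the lowest del/+ library fell within the wt range in females, and the difference was 0.09 (SE 0.039, 95% interval −0.0001 to 0.17, edgeR adjusted p = 0.453, unadjusted 0.0502). Total counts of these female libraries separated by genotype. Lysate RNA gave 0.03 (−0.24 to 0.30) in the 16p11.2 line and 0.05 (−0.18 to 0.28) in the 3g line.

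Footprints of Cul3 were the exception to the overlap among the 4 genes outside the deletion. In the 3g line, del/+ animals 1, 2 and 3 had 36, 46 and 43 footprints (81.0, 70.5 and 77.4 CPM), and wt animals 1, 2 and 3 had 14, 23 and 11 (40.2, 62.1 and 31.04 CPM). The groups did not overlap, as for 6.88% of genes tested in this direction. The log2 difference was 0.77 (SE 0.309, 95% interval 0.11 to 1.42, edgeR adjusted p = 0.533, unadjusted 0.0239), so it did not pass the test, as 0.0132% of genes did. The two-sided exact permutation p was 0.100, the smallest that 3 against 3 allow. Total counts of these libraries also separated by genotype, at 527917 to 678130 in del/+ and 342052 to 422918 in wt, and the endothelial marker sum was 197 to 224 CPM in del/+ and 225 to 816 CPM in wt. The part of either in the difference was not tested. In 16p11.2 footprints the difference of Cul3 was 0.06 (95% interval −0.56 to 0.68, edgeR adjusted p = 0.993).

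Rhoa, the gene of the GTPase targeted by the ligase, was not called in any del/+ to wt comparison, and protein was not measured here. In 16p11.2 males it stood at 104, 100.03, 97.8 and 80.9 CPM in del/+ and at 102, 98.5, 95.3 and 123 CPM in wt. In 16p11.2 females it stood at 87.1, 102, 104 and 94.6 CPM in del/+ and at 99.8, 102, 105 and 92.4 CPM in wt. In males the lowest del/+ and the highest wt library were both numbered 4, and the other 6 libraries lay between 95.3 and 104 CPM. The log2 difference was −0.13 in males (95% interval −0.38 to 0.12, edgeR adjusted p = 0.785) and 0.03 without both libraries numbered 4. In females it was −0.04 (−0.20 to 0.12, adjusted p = 0.998), and 0.01 without the library labelled female 1.

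In 3g males Rhoa ranged from 85.2 to 94.8 CPM in del/+ and from 85.4 to 106 CPM in wt, with the highest value again in wt 17. In 3g females all 8 libraries lay between 87.0 and 90.7 CPM. The log2 differences were −0.05 (95% interval −0.23 to 0.13, edgeR adjusted p = 0.974) and 0.01 (−0.06 to 0.07, adjusted p = 0.969). Without wt 17 the difference in males was 0.02. In 16p11.2 lysate RNA, Rhoa was at 74.6, 72.0 and 64.1 CPM in del/+ and at 66.8, 57.8, 59.9 and 66.7 CPM in wt, a difference of 0.16 (−0.06 to 0.38, edgeR adjusted p = 0.990). In 3g lysate RNA it was −0.03 (−0.24 to 0.17). Footprints of Rhoa gave −0.04 (−0.73 to 0.65) in the 16p11.2 line and −0.53 (−1.19 to 0.13, edgeR adjusted p = 0.682) in the 3g line, so in the 3g line Cul3 and Rhoa footprints differed in opposite directions without either passing the test.

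**Figure D4:**
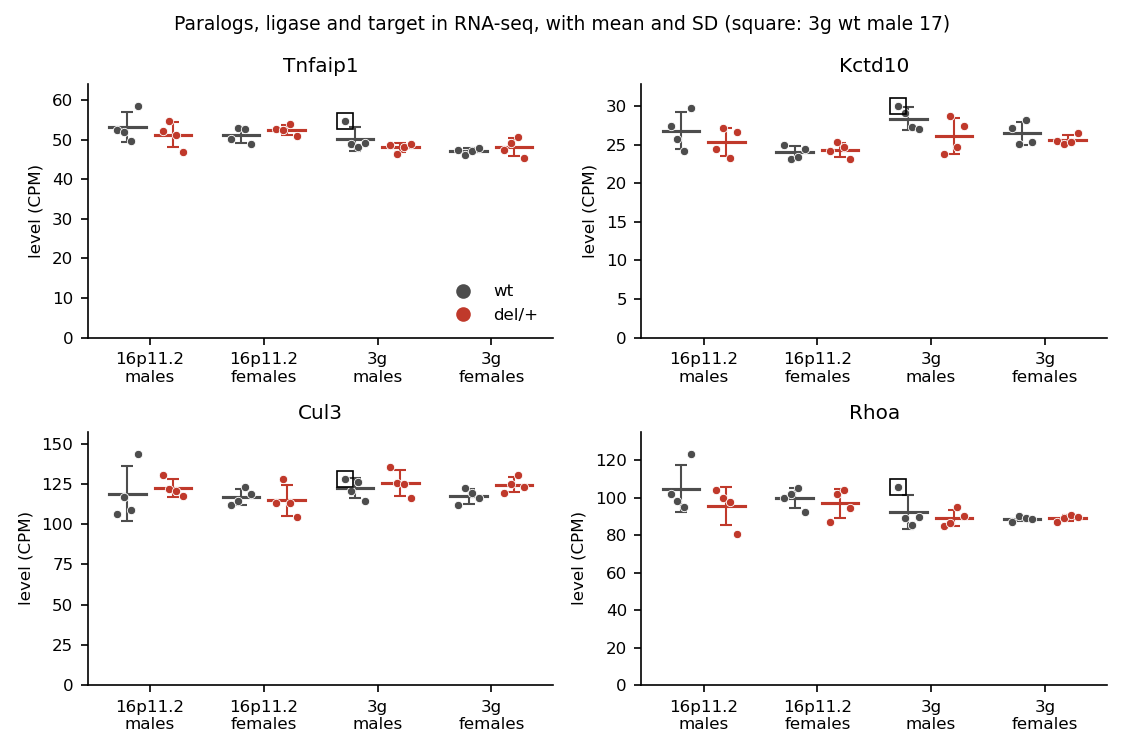
RNA-seq level in CPM (vertical axes, from 0) of Tnfaip1, Kctd10, Cul3 and Rhoa in every library by line and sex, with wt in grey and del/+ in red. Lines are means, bars are SDs and a square marks 3g wt male 17. The wt and del/+ libraries overlap in each of the 4 genes, lines and sexes.

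The group means of Tnfaip1 and Rhoa were higher in the 16p11.2 line than in the 3g line, in both genotypes, when all 32 libraries were normalized together. Tnfaip1 group means were 52.6 to 55.6 CPM in the 4 groups of the 16p11.2 line and 45.2 to 48.1 CPM in the 4 groups of the 3g line. Rhoa group means were 98.3 to 108 CPM and 85.1 to 88.7 CPM. Single libraries overlapped for both genes only through libraries that stand apart in their markers. These were 3g wt male 17, at 53.0 CPM of Tnfaip1 and 102.4 CPM of Rhoa, and 16p11.2 del/+ male 4, at 48.1 and 82.9 CPM. For Cul3 the means were 122 to 126 CPM and 113 to 119.7 CPM, and for Kctd10 they were 25.4 to 27.6 CPM and 24.6 to 27.2 CPM. No test is given for these differences, since line and table cannot be told apart. Single libraries spanned 1.38-fold for Tnfaip1, 1.37-fold for Kctd10, 1.38-fold for Cul3 and 1.58-fold for Rhoa.

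Footprints were then set against RNA of the same lysate. The CPM of each assay was scaled on its own, over the genes that passed the filter of that assay. A ratio of 1 therefore need not match a difference of 0 in the joint fit below, which scales both assays together. In wt animals of the 16p11.2 line, the ratio of footprint CPM to lysate CPM for Kctd13 was 1.96, 2.38, 2.06 and 1.59 in animals 1 to 4. For Cul3 it was 0.782, 0.478, 0.742 and 0.813, and for Rhoa 0.626, 0.986, 0.685 and 0.490. Kctd13 lay above 1 and Cul3 and Rhoa below 1 in all 4 animals. In a joint fit with edgeR, which scales both assays by TMM, the log2 difference of footprints from lysate RNA was 0.60 for Kctd13 (SE 0.168, adjusted p = 0.00621), −0.86 for Cul3 (adjusted p = 0.00101) and −0.93 for Rhoa (adjusted p = 0.000258). Tnfaip1 (−0.62, adjusted p = 0.0553) and Kctd10 (−0.69, adjusted p = 0.0685) did not pass the test. In this fit 46.6% of genes were called in either direction, so 3 of 5 is close to the share of all genes, and Kctd13 lay at percentile 72.0 of 13682 genes.

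In wt animals of the 3g line the ratio for Kctd13 was 2.41, 1.63 and 1.90 in animals 1, 2 and 3, and its log2 difference was 0.30 (SE 0.190, edgeR adjusted p = 0.226). Cul3 was at 0.468, 0.818 and 0.366, with a log2 difference of −1.57 (adjusted p = 0.000107), at percentile 10.2 of 13963 genes. Rhoa was at 1.39, 1.43 and 0.768, a mean ratio of 1.20, whereas the joint fit gave −0.42 (adjusted p = 0.120). Cul3 alone was called among the 5 genes, where 44.3% of all genes were called. Footprints come from translated stretches and lysate RNA from whole transcripts, and for the ratio both assays were scaled separately. A ratio above or below 1 therefore describes these libraries and is no measure of translation on its own.

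**Figure D5:**
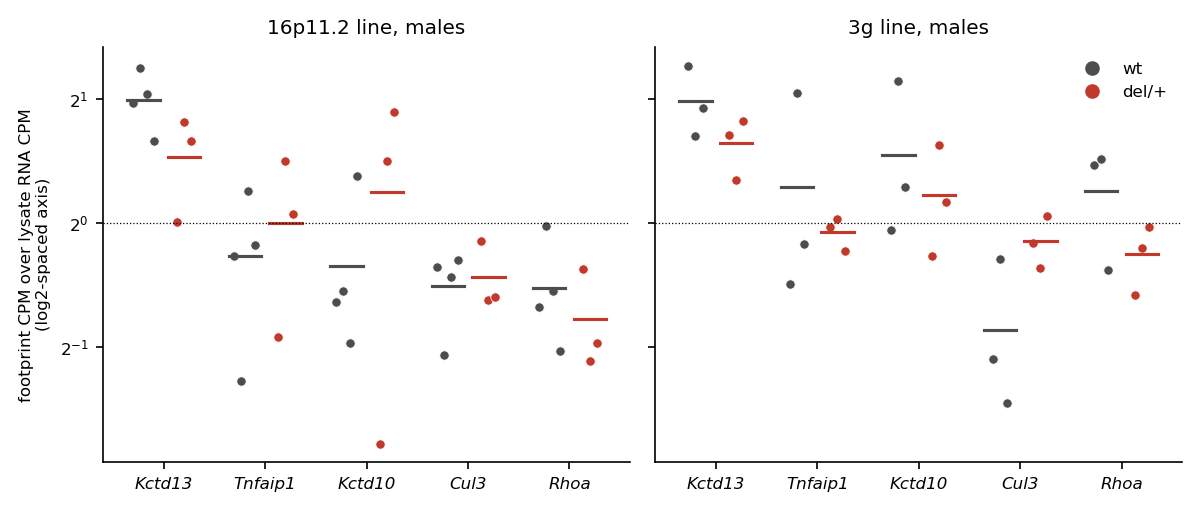
Footprint CPM over lysate RNA CPM of the same animal (vertical axis, spaced by log2) for the 5 genes in both lines, with wt in grey and del/+ in red. Points are animals, horizontal lines are group means and the dotted line marks a ratio of 1, with each assay scaled on its own. Kctd13 lies above 1 in all 13 animals, and Cul3 lies below 1 in 12 of them.

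The ratio of footprints to RNA did not differ between genotypes by the test for any of the 5 genes. For Kctd13 in the 16p11.2 line it was 1.45 ± 0.392 in del/+ (SD, n = 3) and 1.99 ± 0.327 in wt (SD, n = 4). The genotype-by-assay interaction was −0.55 on the log2 scale (SE 0.316, 95% interval −1.20 to 0.10, edgeR adjusted p = 0.854), and its interval holds 0. The ratio was 1.01, 1.76 and 1.58 in del/+ animals 1, 2 and 3, and without animal 1 the interaction was −0.26 (adjusted p = 0.952). In the 3g line the ratio was 1.56 ± 0.258 and 1.98 ± 0.398 (SD, n = 3 each), with an interaction of −0.32 (95% interval −0.89 to 0.25, adjusted p = 0.836). For Cul3 the ratio in the 3g line was 0.905 ± 0.132 in del/+ and 0.551 ± 0.237 in wt (SD, n = 3 each), with an interaction of 0.75 (95% interval 0.13 to 1.36, edgeR adjusted p = 0.581, unadjusted 0.0195), and in the 16p11.2 line it was 0.739 ± 0.146 and 0.704 ± 0.153, with an interaction of −0.06. For Rhoa the interaction was −0.28 in the 16p11.2 line and −0.46 in the 3g line (edgeR adjusted p = 0.935 and 0.738). In these fits 0.00664% of genes were called in the 16p11.2 line and 0% in the 3g line.

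The wider pathway was read from 144 genes in lists of other KCTD family genes, other BTB adaptors of CUL3, cullins, the CUL3 core with the NEDD8 cycle and the COP9 signalosome, RhoA exchange factors, GTPase-activating proteins, GDP-dissociation inhibitors, effectors, and adenylosuccinate synthetases, a group of purine synthesis enzymes that KCTD13 has been linked to. Of these, 143 were tested in each RNA-seq comparison and none was called in either direction by edgeR. At an unadjusted p under 0.05, 7 of 143 (4.9%) passed in 16p11.2 males and 6 (4.2%) in females, against 5.82% and 4.47% of all genes. In the 3g line 0 of 143 passed in males and 24 (16.8%) in females, against 1.44% and 11% of all genes. Total counts separated by genotype in the 3g females. The median log2 difference over the 143 lay between −0.03 and 0.01 in the 4 comparisons. In lysate RNA 142 and 141 of these genes were tested in the 16p11.2 and 3g lines, and in footprints 81 and 107, and none was called. At an unadjusted p under 0.05, 4 (2.82%) and 6 (4.26%) passed in lysate RNA, against 4.41% and 4.92% of all genes. In footprints 9 (11.1%) passed in the 16p11.2 line, against 6.15% of all genes, and 8 (7.48%) in the 3g line, against 7.97%. Without the libraries that stand apart, 11 of the 143 (7.69%) passed in 16p11.2 males, 9 (6.29%) in 16p11.2 females and 5 (3.5%) in 3g males, against 7.4%, 6.11% and 3.03% of all genes, and none was called.

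By list, the median log2 difference in 16p11.2 males and females was −0.02 and −0.03 over 20 other KCTD genes, −0.05 and 0.05 over 30 other BTB adaptors, −0.01 and −0.04 over 7 cullins and −0.09 and −0.002 over 23 genes of the core and its regulators. Without both libraries numbered 4 the medians in males were −0.02, 0.02, −0.01 and 0.02, so those of the BTB adaptors and of the core changed sign. Kctd17, another CUL3 adaptor of the family, was at −0.07 and −0.04, Kctd1 was at −0.13 and −0.08, and Kctd3 at −0.03 and −0.08. Enc1, a kelch-repeat BTB gene of neurons, was at −0.08 and −0.17, Ivns1abp was at 0.21 and 0.06, and Klhl2 at 0.01 and 0.11. Cul1, the scaffold of the SCF ligases, was at −0.02 and −0.14, Cul9 at 0.04 and −0.04, and Cul4a, the scaffold of the DDB1 ligases, at −0.05 and −0.01. Cand1, which exchanges cullin adaptors, was at −0.09 and −0.12, and the COP9 signalosome genes Cops7a and Gps1 were at −0.14 and −0.20 in males and 0.07 and −0.02 in females. None of these passed the test.

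On the RhoA side, the median was 0.10 and −0.10 over 19 exchange factors, 0.07 and −0.04 over 15 GTPase-activating proteins and 0.06 and −0.07 over 24 effectors, in males and females of the 16p11.2 line. The signs of the medians were opposite in the sexes for each of these 3 lists, and no gene passed the test. Without both libraries numbered 4 the medians in males were 0.04, 0.05 and 0.02. Kalrn, an exchange factor gene of dendritic spines, was at 0.03 in males and −0.08 in females, Arhgef17 at −0.02 and 0.08, and Arhgef12 at 0.10 and 0.15. Of the GTPase-activating proteins, Arhgap35 (p190RhoGAP) was at −0.03 and 0.06, Arhgap21 at 0.17 and −0.07, and Myo9a at 0.07 and −0.01. Rock2, a kinase activated by RhoA, was at 0.10 in males and −0.07 in females, and Cfl1, the actin-severing cofilin at the end of that kinase pathway, at −0.14 and 0.02. Cit, which encodes citron kinase, was at 0.08 and 0.04. The GDP-dissociation inhibitors, which hold RhoA inactive in the cytosol, had a median of −0.26 in males and −0.02 in females over 3 genes, and −0.19 in males without both libraries numbered 4. Arhgdia was at −0.26 (edgeR adjusted p = 0.742, unadjusted 0.0300) and Arhgdib, expressed mainly in blood cells, at −0.43 (adjusted p = 0.742) in males, and they were at −0.02 and −0.40 in females, with adjusted p of 0.998 and 0.954. With sex as a covariate across the 16p11.2 line, Arhgdib had the smallest p of the 143 pathway genes tested and was not called. Its log2 difference was −0.41 (edgeR adjusted p = 0.333, unadjusted 0.00125). Arhgdig was at −0.03 in males and 0.09 in females. The adenylosuccinate synthetase gene Adss was at 0.08 in males and −0.06 in females, and Adssl1 at −0.16 and −0.18.

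The genes whose RNA level most resembled that of each member were found over the 32 RNA-seq libraries, after the mean of each line and sex was removed, among 15096 genes. For Kctd13 they were Cd2bp2 (Pearson r = 0.985), Cdipt (0.980) and Tbc1d10b (0.980), all on chromosome 7 within 249.6 kb of Kctd13, and the 8 del/+ libraries of the 16p11.2 line, in which Kctd13 is low, are among the 32 points. Cd2bp2 and Tbc1d10b are not in the list of segment genes used above, and whether the deletion reaches them was not tested. For Tnfaip1 they were Prnp (0.904), Nicn1 (0.872) and Arpc4 (0.866). For Cul3 they were Kpna1 (0.923), Atf2 (0.917) and Arfgef1 (0.914), and for Rhoa Paics (0.910), Degs1 (0.905) and Ywhae (0.904). The highest values for Kctd10 were lower, with Mex3d (0.719), Chaf1a (0.708) and Riox1 (0.701). No other member was among the 3 genes of any member. The 32 points share tables, tissue and the 4 libraries that stand apart, and these values are descriptions.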

How the data were processed

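The 6 tables hold whole-number counts of reads per gene as deposited by the authors, not normalized. Per the study's methods, the RNA-seq reads went through the bcbio-nextgen pipeline. The submitters' processing notes name HTSeq and the build mm10 for RNA-seq, and Bowtie2 and mm39 for footprints and lysate RNA, and how those reads were trimmed or counted, and all tool versions, are not given in the sources used here. The labels name a ribosomal RNA depletion kit but polyA RNA as the molecule, and their extraction text mentions human brains, so the preparation is uncertain. It could change which transcripts are counted. No column belonged to another sample (0 columns).

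Each comparison used only its own groups. Genes with low counts were removed with filterByExpr, libraries were scaled by TMM, and edgeR 4.0.16 (quasi-likelihood test, limma 3.58.1, R 4.3.3) tested del/+ against wt, with Benjamini-Hochberg adjustment over all genes tested and calls at an adjusted p under 0.05. Levels are CPM on the TMM-scaled library size. Interactions with sex, line and assay were fitted in 1 model each. DESeq2 1.42.0, another normalization, no filter, all libraries of a line in 1 fit, leaving out each replicate and a replicate block were alternatives. Exact permutation tests used log2(CPM + 0.5). Some of these fits, but not all, were tested on simulated counts. Intervals cover the spread between libraries, and reads without molecular identifiers are not independent molecules.

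Footprint and lysate libraries of 1 number were taken to come from 1 animal because they share that number. Correlations of their deviations were 0.164 to 0.372 in the 16p11.2 line and 0.0526 to 0.366 in the 3g line. These values do not settle the pairing on their own. By the same measure, same-numbered RNA-seq libraries of the 16p11.2 line gave −0.214 to 0.0915 and were not paired in the main fits. Both male libraries numbered 4 had unlike marker sums. No 2 replicates agreed within sampling noise (chi-square per degree of freedom 3.06 or more).

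The members and gene lists were chosen with earlier results of these data known. Named from each pathway and segment list were called genes (at most the 5 with the smallest p in a comparison) and the 3 genes highest in wt RNA-seq, and marker lists are given as sums, and for each member the 3 genes most like it among those with a mean of at least 1 CPM. Symbols and positions are from RefSeq (GRCm38.p6), in which all 5 members matched. The list symbols Klhl17, Adss2, Adss1 and Tlcd3b were not used here. A further gene family list is not reported here.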

Additional observations from a re-analysis of the deposited data

Results flagged for a closer look

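Tnfaip1 in 3g wt male 17 stood at 54.7 CPM, apart from the other 3 wt males of the group, which lay between 48.2 and 49.0 CPM. The gap was 0.881 of the range of the group, past the 95% critical value of Dixon's test. This library also stands apart in its endothelial, oligodendrocyte and cortical marker sums, and without it the log2 difference of Tnfaip1 in 3g males was −0.02 (edgeR adjusted p = 1.00). Dixon's test was applied to 50 groups of 4 libraries, and chance flags about 1 in 20 groups.

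The difference of Kctd13 between del/+ and wt differed between the lines, by −1.02 on the log2 scale (16p11.2 minus 3g, edgeR adjusted p = 1.05e-09 for the interaction). It was lower in 8 of 8 del/+ libraries than in every wt library of the same sex in the 16p11.2 line, whereas the libraries of the 3g line overlapped in both sexes. The other 4 genes gave interactions between −0.06 and 0.05, and none passed the test.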

How the results depend on the processing

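For the 5 genes, 606 alternative values were computed for 83 differences and 603 kept their side of the threshold, while 46 values called neither way changed sign. The 3 that changed side all concern Kctd13: in 16p11.2 lysate RNA leaving out 1 library at a time gave −0.99 to −0.82, with the call lost without del/+ animal 2 or 3, and in 16p11.2 footprints the unfiltered fit called it (−1.37, adjusted p = 0.0378). The cause was not tested. Kctd13 had 8 to 34 counts per footprint library in the 16p11.2 line and 23 to 45 in the 3g line, and this depth limits the footprint results. Numbers of genes called over the whole tables moved more. With DESeq2 they were 37 in 16p11.2 males (19 with edgeR), 50 in 16p11.2 females (26), 1 in 3g males (0), 109 in 3g females (1), 32 and 13 in 16p11.2 and 3g lysate RNA (19 and 3), 21 and 13 in their footprints (7 and 1), 3 for the sex interaction in the 16p11.2 line (0), and 4 and 26 for the assay interaction in the 16p11.2 and 3g lines (1 and 0). Without the filter they were 45 in 16p11.2 females, 158 in 3g females, 9 in 3g lysate RNA, and 43 and 127 in 16p11.2 and 3g footprints. With all 16 libraries of the line in 1 fit, 1 was called in 3g males. Leaving out replicates gave 0 to 1 in 3g males, 1 to 175 in 3g females (175 without wt 39), 10 to 19 in 16p11.2 lysate RNA (10 without del/+ animal 2), 3 to 12 in 3g lysate RNA, 2 to 13 and 0 to 24 in 16p11.2 and 3g footprints, and 1 to 2 and 0 to 4 for the assay interaction in the 16p11.2 and 3g lines. Alternatives chosen after seeing the data left out the libraries that stand apart. They gave 0 to 1 for the sex interaction in the 16p11.2 line, 2 for both sexes of the 3g line (1 with all libraries) and 25 to 47 for the line interaction (26 with all libraries). With a replicate block the sex interaction in the 16p11.2 line gave 2 called genes and the assay interaction, blocked by animal, gave 10 in each line, and the block changed no call of the 5 genes. Correlations of same-numbered RNA-seq libraries of the 16p11.2 line ran from −0.214 to 0.0915. The highest lay above the lowest footprint and lysate value (0.0526, 3g line), so this measure cannot decide whether the numbers pair them. Both male libraries numbered 4 had endothelial marker sums (192 and 174 CPM) above those of the other males of the line. Whether these libraries share a batch was not tested. For del/+ against wt in RNA-seq of the 3g line, in footprints and in lysate RNA, no paired analysis was possible because these groups share no replicate numbers.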
